A study of Homo sapiens with 2 samples.

Results

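Cluster 7 is a small group of human adipose-derived mesenchymal stem cells that was present in both a TGFB1-treated and an untreated library. Its members are all cells to which the cluster table deposited by the authors gives the number 7, 577 of 20656 cells in all. The TGFB1 library held 303 of them among 12555 cells, and the untreated library held 274 among 8101 cells. The cells were a commercial adipose-derived product, grown in plates and starved overnight. They then received TGFB1 at 10 ng/mL for 24 h or no treatment, and after detachment and freezing went to 10x single-cell sequencing. Each condition was 1 library, and the labels do not say how many donors or cultures went into either. No spread between replicates could therefore be had, no difference was tested, and treatment cannot be told apart from any other difference between the libraries. Every interval below is at the 95% level and covers counting error only.

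Mesenchymal stem cells are stromal cells that can give rise to fat, bone and cartilage in culture, and in adipose tissue they lie in the connective tissue and around vessels. TGFB1, a secreted factor, binds receptor kinases that activate SMAD transcription factors. In stromal cells it is known for raising contractile and matrix genes, the programme of the myofibroblast, and for slowing division. The proposed markers of cluster 7 encode proteins of different kinds. SFRP4 is a secreted antagonist of Wnt ligands, POSTN (periostin) a matricellular protein, ACTC1 the cardiac muscle alpha actin, and KRT18 a keratin of simple epithelia.

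Cluster 7 made up 2.41% of the TGFB1 library (exact binomial interval 2.15% to 2.70%) and 3.38% of the untreated library (2.999% to 3.80%). Of the 11 clusters, 3 held 50 or more cells of each library: cluster 7, cluster 9 with 183 TGFB1 and 108 untreated cells, and cluster 1 with 56 and 3687. Cluster 10 held 113 and 33. Each cluster other than 7, 9 and 10 came mostly from a single library, so the cells with which cluster 7 is compared are different clusters in each. Cluster 7 cells were deeper than the other cells of their library, with a median of 20206 UMIs in cluster 7 against 15015.5 in other cells with TGFB1, and of 23212.5 in cluster 7 against 19156 in other cells without treatment. The median mitochondrial share was lower, at 1.81% in cluster 7 against 2.50% in other cells with TGFB1, and at 1.98% in cluster 7 against 2.68% in other cells without treatment. Together they held 6529942 UMIs in the TGFB1 library and 6845452 in the untreated library, so 3 UMIs, the most that a sum of 0 allows, come to 0.459 and 0.438 CPM (UMIs per 1000000 UMIs of the sum). The part of these depth gaps in the results was not tested, and shares of cells are also given after each cell was thinned to 7500 UMIs.

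In the UMAP deposited by the authors, cluster 7 lay apart from the main body of each library, except for some of its cells. In the TGFB1 library 25 of the 303 cells lay more than 3 UMAP units from the cluster's median, most of them at the edge of the main body of that library. In the untreated library 3 of the 274 cells did. These distant cells were deep, with a median of 31605 UMIs in the TGFB1 library and 29405 UMIs in the untreated library. Where a result rests on them, its value without them is given beside it. Of 18 cell barcodes that occur in both libraries, 1 belonged to a cell of cluster 7.

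**Figure D1:**
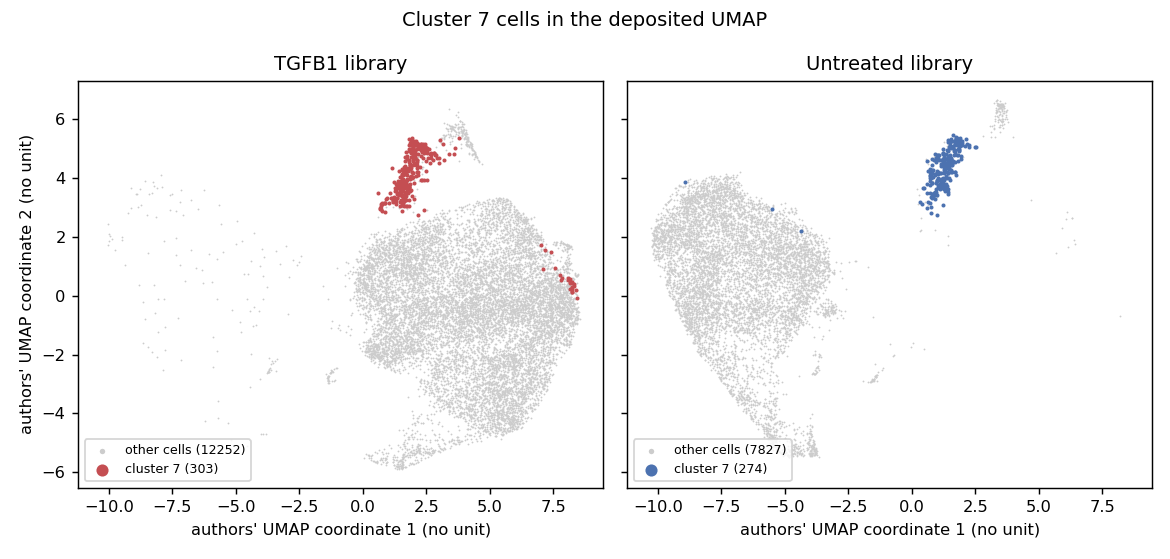
Each point is a cell at the UMAP coordinates (no unit) deposited by the authors, for the TGFB1 library on the left and the untreated library on the right, with cluster 7 in colour. The 303 and 274 coloured cells sit in nearly the same place while the grey cells of the 2 libraries do not, and 25 coloured cells of the TGFB1 library lie at the edge of its main body.

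The 4 proposed markers were high in cluster 7 in both libraries. The clusters were made from these cells and genes, so the comparison of cluster 7 with all other cells of its library is a description and not a test. SFRP4 stood at 738 CPM in cluster 7 and 32.0 CPM in the other cells of the TGFB1 library, and at 883 CPM in cluster 7 and 31.6 CPM in other cells in the untreated library. POSTN stood at 1623 CPM in cluster 7 and 148 CPM in other cells with TGFB1, and at 2512 CPM in cluster 7 and 210 CPM in other cells without it. ACTC1 stood at 390 CPM in cluster 7 and 57.3 CPM in other cells with TGFB1, and at 202 CPM in cluster 7 and 7.13 CPM in other cells without it. All 3 were thus several times higher in cluster 7 whichever library was read. KRT18 stood at 248.9 CPM in cluster 7 and 74.8 CPM in other cells with TGFB1, and at 295 CPM in cluster 7 and 24.1 CPM in other cells without it, so it set the cluster apart 3.33-fold in the TGFB1 library and 12.2-fold in the untreated library. Outside cluster 7, SFRP4 and POSTN differed between the libraries by at most 1.42-fold, whereas ACTC1 and KRT18 were lower in other untreated cells than in other TGFB1 cells.

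The 250 bases before the start of 3 of these genes are shown because ACTC1, POSTN and SFRP4 are proposed markers and were several times higher in cluster 7 in both libraries, and the windows let their starts be compared letter by letter. They are from RefSeq (GRCh38.p14), on the minus strand, at chr15:34795550-34795799 for ACTC1, chr13:37598769-37599018 for POSTN and chr7:37916818-37917067 for SFRP4. ACTC1 has 3 windows in the table, and the one with the most matches is shown. KRT18 is named only. Capitals mark matches to any of 4 motifs searched on both strands: the CArG box by name (the serum response factor motif), the muscle element CATTCC, the AP-1 element TGAGTCA or TGACTCA, and TATAAA of the core promoter.
ACTC1: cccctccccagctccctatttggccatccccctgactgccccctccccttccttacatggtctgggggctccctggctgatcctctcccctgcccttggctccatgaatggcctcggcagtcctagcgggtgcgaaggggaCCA-0.65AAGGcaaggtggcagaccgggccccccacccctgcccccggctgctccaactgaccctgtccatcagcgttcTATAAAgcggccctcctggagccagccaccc
POSTN: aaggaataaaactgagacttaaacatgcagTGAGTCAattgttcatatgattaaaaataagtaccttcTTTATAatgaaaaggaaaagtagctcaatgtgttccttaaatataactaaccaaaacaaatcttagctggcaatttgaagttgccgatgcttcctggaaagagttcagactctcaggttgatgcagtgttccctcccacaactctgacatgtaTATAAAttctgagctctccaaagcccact
SFRP4: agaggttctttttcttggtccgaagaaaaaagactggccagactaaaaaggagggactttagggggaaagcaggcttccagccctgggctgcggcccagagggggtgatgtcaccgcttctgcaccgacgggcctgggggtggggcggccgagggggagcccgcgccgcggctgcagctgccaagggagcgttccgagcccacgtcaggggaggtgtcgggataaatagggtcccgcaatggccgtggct
The ACTC1 window holds a CArG box at position -109 and TATAAA at -31, counted from the start. The letters of that box are CCAAATAAGG, and any other characters printed within it above are a misprint. The POSTN window holds TGAGTCA at -220, TATAAA at -29 and the same motif on the other strand at -182. The SFRP4 window holds none of the 4, so the 3 genes share no one of these motifs in these windows. Of 35116 windows of the same length, 1.16% hold a CArG box, 11.9% CATTCC, 4.203% either form of the AP-1 element and 10.7% TATAAA on either strand. A match here is a description only.

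All 4 markers were found together in a minority of the single cells of cluster 7, though in a larger share than of other cells. After thinning to 7500 UMIs, which left 268 TGFB1 and 257 untreated cells of the cluster, SFRP4 had a UMI in 76.9% of cluster 7 cells and 12.6% of other cells with TGFB1, and in 82.5% of cluster 7 cells and 10.2% of other cells without it. POSTN had one in 91.8% of cluster 7 cells and 34.7% of other cells with TGFB1, and in 96.1% of cluster 7 cells and 36.8% of other cells without it. ACTC1 was found in 61.2% of cluster 7 cells and 20.3% of other cells with TGFB1, but in 32.3% of cluster 7 cells and 2.52% of other cells without it, so it marked most of the cluster's cells in the TGFB1 library and a minority in the untreated library. KRT18 was found in 52.2% of cluster 7 cells and 23.1% of other cells with TGFB1, and in 47.5% of cluster 7 cells and 7.96% of other cells without it. Before thinning the shares in cluster 7 were 87.1% and 92.7% for SFRP4, 94.7% and 98.5% for POSTN, 72.6% and 48.9% for ACTC1, and 61.7% and 65.7% for KRT18, in the TGFB1 and untreated library in that order. Free RNA puts UMIs into cells that do not express a gene, and the lowest thinned share of SFRP4 in any other cluster was 6.07% in the TGFB1 library (cluster 3, median 21819 UMIs) and 7.65% in the untreated library (cluster 6, median 21261.5 UMIs). For POSTN, ACTC1 and KRT18 the lowest other clusters had 21.8%, 8.74% and 7.55% with TGFB1, and 25.4%, 1.22% and 5.95% without it, all below cluster 7. All 4 markers were found at once in 24.6% of cluster 7 cells and 1.06% of other cells with TGFB1, and in 11.7% of cluster 7 cells and 0.122% of other cells without it. None of the 4 was found in 0.746% of cluster 7 cells and 40.2% of other cells with TGFB1, and without it in 0 of 257 cluster 7 cells, which allows a share of up to 1.17%, and in 52.998% of other cells.

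From cell to cell within cluster 7, SFRP4 and the other markers had weak correlations, and SFRP4 went with COL1A1. Over the thinned cells, Spearman's rho between SFRP4 and POSTN was -0.09 in 268 TGFB1 cells and -0.07 in 257 untreated cells, and between SFRP4 and KRT18 it was -0.16 and -0.19. With COL1A1, the main collagen chain of connective tissue, rho was 0.43 and 0.36. A second axis ran along the contractile genes, with a rho of 0.63 and 0.58 between ACTA2 and TAGLN (smooth muscle actin and transgelin), and of -0.31 and -0.37 between COL1A1 and TAGLN. KRT18 lay on the contractile side, at 0.31 and 0.27 with TAGLN. The points are cells of a single library at equal depth, and these values describe how cluster 7 varies inside itself. Sparse counts hold a rho near 0, so the weak ones carry no finding.

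Across the whole table, 383 genes (3.55% of 10783 genes at 5 CPM or more) were at least 2-fold higher in cluster 7 than in the other cells of the TGFB1 library, and 140 (1.3%) at least 2-fold lower. In the untreated library 450 genes (4.05% of 11115) were higher and 540 (4.86%) lower. Without the 25 distant cells, 215 genes were lower with TGFB1 in place of 140. Among genes of 20 CPM or more, the 15 with the highest ratio in whichever library gave the lower one included SFRP4, EPDR1, ANKRD6, POSTN, CHN2, GDF15, SCUBE3, MYO1D, EFEMP1, ACTC1, PTGS2, PCSK5, ENG and ACKR3.

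Some of these encode proteins of the cytoskeleton or its regulation. MYO1D, an unconventional myosin, stood at 74.7 CPM in cluster 7 and 9.72 CPM in other cells with TGFB1, and at 86.5 CPM in cluster 7 and 11.8 CPM in other cells without it. CHN2, a GTPase-activating protein for Rac, was 10.2-fold higher in cluster 7 with TGFB1 and 10.8-fold without it. Between TGFB1 and untreated cells of cluster 7 the ratios of MYO1D and CHN2 were 0.864 and 1.25.

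Others encode secreted, surface or enzyme proteins. EPDR1, a secreted ependymin-related protein, stood at 92.3 CPM in cluster 7 and 5.81 CPM in other cells with TGFB1, and at 108 CPM in cluster 7 and 6.07 CPM in other cells without it. EFEMP1 (fibulin 3), a matrix glycoprotein, stood at 285 CPM in cluster 7 and 38.8 CPM in other cells with TGFB1, and at 446 CPM in cluster 7 and 58.5 CPM in other cells without it. GDF15, a stress-induced member of the TGFB superfamily, stood at 79.3 CPM in cluster 7 and 9.92 CPM in other cells with TGFB1, and at 91.6 CPM in cluster 7 and 7.27 CPM in other cells without it. Each was thus several times higher in cluster 7 than in other cells of its library. PTGS2, the inducible cyclooxygenase of prostaglandin synthesis, was 6.64-fold higher in cluster 7 with TGFB1 and 14.5-fold without it. PCSK5, a protease that matures secreted precursors, was 6.38-fold higher with TGFB1 and 15.1-fold without it. ACKR3, a scavenging receptor for the chemokine CXCL12, was 4.96-fold higher with TGFB1 and 10.9-fold without it. For these 3 the larger ratio without treatment came with a lower level in the other untreated cells. ANKRD6, an ankyrin-repeat protein of Wnt signalling, followed the same order at 12.5-fold and 28.9-fold.

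**Figure D2:**
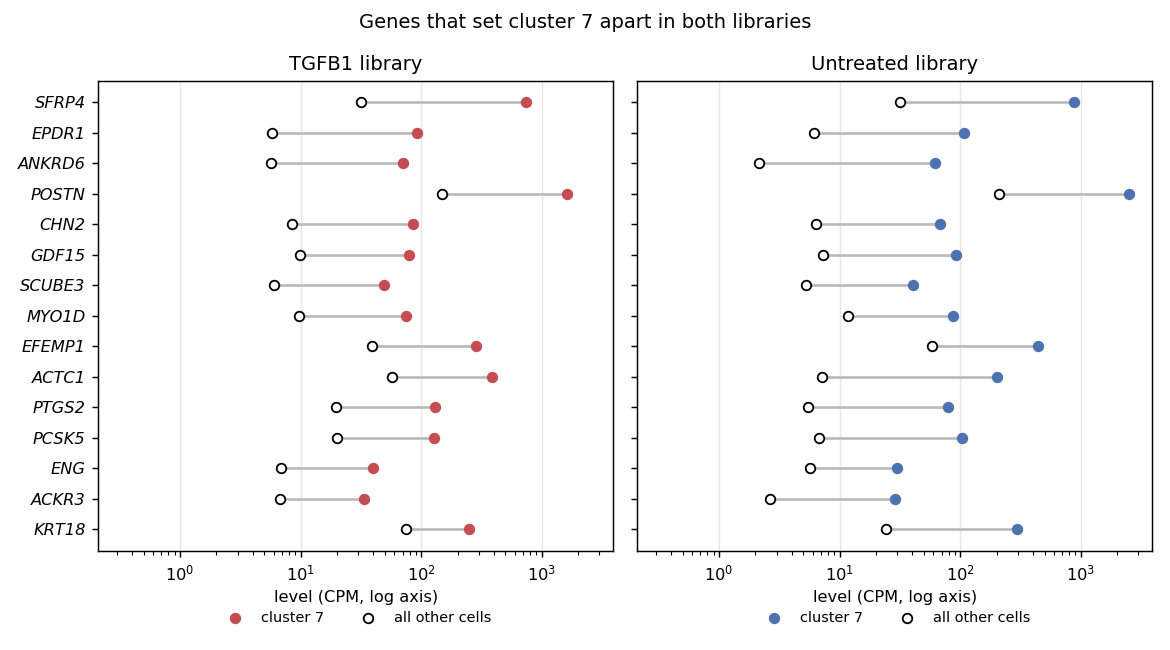
Levels in CPM on a log axis in cluster 7 (filled) and in all other cells of the same library (open), for the TGFB1 library on the left and the untreated library on the right, for 14 of the 15 genes highest in both and KRT18. Each of the genes plotted is higher in cluster 7 in both libraries, and ACTC1, PTGS2 and PCSK5 have lower open points without treatment.

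Cluster 9, which also drew many cells from both libraries, came next to cluster 7 for several of these genes. SFRP4 stood at 738 CPM in cluster 7, 313 CPM in cluster 9 and 107 CPM in cluster 10 with TGFB1, and at 883 CPM in cluster 7 and 675 CPM in cluster 9 without it. EPDR1, ANKRD6 and PTGS2 were likewise highest in cluster 7 among the clusters of at least 50 cells in both libraries. ACTC1 stood at 390 CPM in cluster 7 and 195 CPM in cluster 9 with TGFB1, and was level without treatment, at 202 CPM in cluster 7 and 200 CPM in cluster 9. POSTN was higher in cluster 10 with TGFB1, at 2289 CPM, and in cluster 9 without it, at 2841 CPM. KRT18 was higher in cluster 10 with TGFB1, at 298 CPM. ENG (endoglin), a co-receptor for TGFB ligands, stood at 39.5 CPM in cluster 7 and 236 CPM in cluster 9 with TGFB1, and at 29.9 CPM in cluster 7 and 270 CPM in cluster 9 without it. When every other cluster was given equal weight, the log2 ratio of ENG for cluster 7 over the rest turned to -0.14 with TGFB1 and -1.20 without it, and that of SCUBE3 to -0.33 without it.

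**Figure D3:**
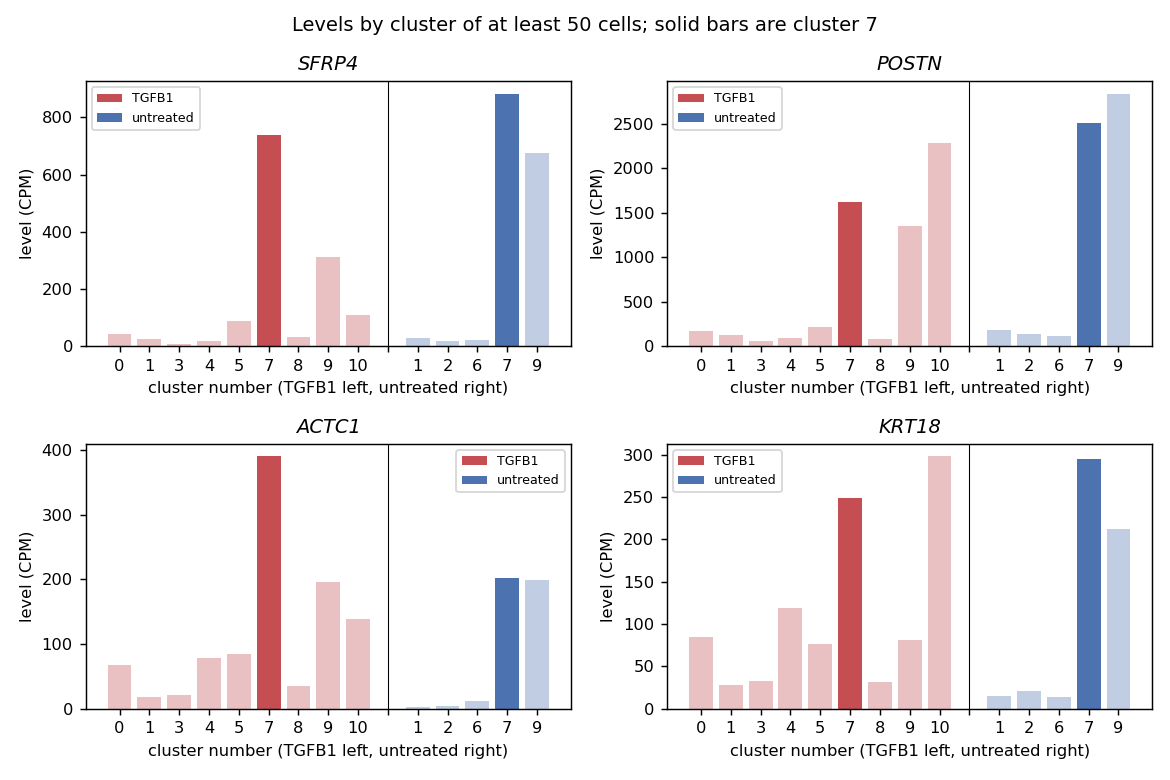
Levels in CPM of the 4 proposed markers in every cluster of at least 50 cells, TGFB1 clusters left and untreated clusters right of the line in each panel, with cluster 7 solid. SFRP4 is highest in cluster 7 in both libraries, ACTC1 is highest there with TGFB1 and level with cluster 9 without it, and POSTN is passed by cluster 10 with TGFB1 and by cluster 9 without it.

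Cluster 7 was also set beside cluster 9 gene by gene, and the genes named here were chosen after their values were seen. At 20 CPM or more, 53 genes (0.777% of 6823) were at least 2-fold higher in cluster 7 than in cluster 9 with TGFB1 and 198 (2.9%) lower. Without treatment 118 (1.65% of 7140) were higher and 470 (6.58%) lower. KLHL13, an adaptor of a ubiquitin ligase, stood at 62.3 CPM in cluster 7 and 4.34 CPM in cluster 9 with TGFB1, and at 60.9 CPM in cluster 7 and 5.08 CPM in cluster 9 without it. PENK, the enkephalin precursor, stood at 28.2 CPM in cluster 7 and 8.37 CPM in cluster 9 with TGFB1, and at 23.7 CPM in cluster 7 and 4.57 CPM in cluster 9 without it. SCRG1 stood at 197 CPM in cluster 7 and 68.2 CPM in cluster 9 with TGFB1, and at 245 CPM in cluster 7 and 81.8 CPM in cluster 9 without it. Lower in cluster 7 were TSHZ2, a zinc finger transcription factor, at 1.38 CPM in cluster 7 and 251 CPM in cluster 9 with TGFB1, and at 1.02 CPM in cluster 7 and 636 CPM in cluster 9 without it. KCND2, a potassium channel subunit, stood at 10.3 CPM in cluster 7 and 281 CPM in cluster 9 with TGFB1, and at 13.6 CPM in cluster 7 and 419 CPM in cluster 9 without it. STMN2, a microtubule regulator of neurons, stood at 37.98 CPM in cluster 7 and 582 CPM in cluster 9 with TGFB1, and at 37.7 CPM in cluster 7 and 886 CPM in cluster 9 without it. MGP, an inhibitor of calcification, stood at 4.13 CPM in cluster 7 and 65.4 CPM in cluster 9 with TGFB1, and at 2.78 CPM in cluster 7 and 141 CPM in cluster 9 without it. Each of the genes named here lay on the same side in both libraries.

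Over the whole profile, the clusters most like cluster 7 were cluster 0 in the TGFB1 library (Pearson r 0.981 across 10268 genes of log2(CPM + 1)) and cluster 1 in the untreated library (r 0.953 across 10698 genes). These are the largest cluster of each library, and cluster 9 came next in both, at 0.970 and 0.947. Genes are not replicates, and these values only order the clusters.

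Genes of the dividing cell were low in cluster 7. Of the genes of G2 and M phase, 17 of 19 measured were at least 1.5-fold lower and 0 higher in cluster 7 with TGFB1 (median log2 ratio -2.35), where 4.57% of all genes were lower by that much. Without treatment 24 of 24 were lower (median -3.66), where 10.9% of all genes were. CENPF, a kinetochore protein, stood at 1.53 CPM in cluster 7 and 18.6 CPM in other cells with TGFB1, and at 2.92 CPM in cluster 7 and 59.9 CPM in other cells without it. MKI67, the proliferation antigen, had 3 UMIs over all cluster 7 cells with TGFB1 and 0 without it. After thinning, the share of untreated cluster 9 cells with an MKI67 UMI was also 0. A UMI of MKI67 or TOP2A was found in 1.87% of cluster 7 cells and 5.25% of other cells with TGFB1 after thinning, and in 1.17% of cluster 7 cells and 12.2% of other cells without it. Before thinning it was 3.63% of cluster 7 cells and 8.02% of other cells with TGFB1, and 5.11% of cluster 7 cells and 17.8% of other cells without it. In the TGFB1 library the median turned to 0.15 when all cells with such a UMI were left out, and to 0.24 when clusters 5, 6 and 8 were left out of the other cells. MKI67 and TOP2A are themselves on this list, so leaving out cells with their UMIs lowers the list in the other cells by construction. How cluster 7 compares with other non-dividing cells can therefore not be read from these medians.

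The 10 genes lowest in cluster 7 in both libraries held some of the same biology. PTTG1 (securin), which holds back the separation of sister chromatids, stood at 8.42 CPM in cluster 7 and 30.8 CPM in other cells with TGFB1, and at 8.18 CPM in cluster 7 and 74.4 CPM in other cells without it. CKS2, a subunit of the cyclin-dependent kinases, stood at 7.96 CPM in cluster 7 and 30.2 CPM in other cells with TGFB1, and at 15.3 CPM in cluster 7 and 80.9 CPM in other cells without it. HMGA1, an architectural protein of chromatin in growing cells, stood at 23.6 CPM in cluster 7 and 56.0 CPM in other cells with TGFB1, and at 21.8 CPM in cluster 7 and 108 CPM in other cells without it. All 3 were lower in cluster 7 than in all other cells in both libraries. Untreated cluster 9 was about as low for PTTG1 and CKS2. After thinning, the untreated shares of cluster 7 and cluster 9 cells with a UMI were 4.67% and 3.53% for PTTG1. They were 10.9% and 8.24% for CKS2, and 13.2% and 22.4% for HMGA1. With TGFB1 they were 2.99% and 6.87%, 6.34% and 7.63%, and 11.2% and 22.1%, in that order of genes. The others were PLD5, ZNF804A, DOCK10, LINC03051, SNTB1, GABBR2 and SEPTIN6. GABBR2, a subunit of the GABA-B receptor, stood at 11.2 CPM in cluster 7 and 40.2 CPM in other cells with TGFB1, and at 2.63 CPM in cluster 7 and 25.4 CPM in other cells without it. Without the distant cells it was 5.49-fold lower in cluster 7 with TGFB1, in place of 3.60-fold.

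Some genes on the list of p53 targets and cell cycle inhibitors were higher in cluster 7, though most of the list did not pass 1.5-fold. CDKN1A, the p21 inhibitor of cyclin-dependent kinases, stood at 400 CPM in cluster 7 and 150 CPM in other cells with TGFB1, and at 403 CPM in cluster 7 and 149 CPM in other cells without it. CCND2, a D-type cyclin on the same list, stood at 11.2 CPM in cluster 7 and 1.54 CPM in other cells with TGFB1, and at 17.7 CPM in cluster 7 and 1.62 CPM in other cells without it. ZMAT3, a p53 target, was 1.88-fold higher in cluster 7 with TGFB1 and 1.65-fold without it. Over the list, 6 of 21 were higher and 2 lower with TGFB1, and 6 of 23 higher and 3 lower without it. Of all genes, 8.77% were higher and 4.57% lower by that much with TGFB1, and 9.03% higher and 10.9% lower without it.

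Of the matrix lists, the collagen chains were split with TGFB1, and the proteoglycan and collagen modification lists had more genes higher than lower in both libraries. Of all genes, 8.77% were higher and 4.57% lower with TGFB1, and 9.03% higher and 10.9% lower without it. Of the collagen chains, 6 of 22 were higher and 5 lower with TGFB1, and 11 of 21 higher and 4 lower without it. COL3A1, a fibrillar chain, stood at 4549 CPM in cluster 7 and 2030.3 CPM in other cells with TGFB1, and at 4295 CPM in cluster 7 and 1701 CPM in other cells without it. COL6A3, a chain of the beaded filaments, went the other way, at 387 CPM in cluster 7 and 671 CPM in other cells with TGFB1 and at 243 CPM in cluster 7 and 489 CPM in other cells without it. The proteoglycan list had 9 of 17 higher and 1 lower with TGFB1, and 6 of 18 higher and 0 lower without it. LUM (lumican), which spaces collagen fibrils, stood at 701 CPM in cluster 7 and 281 CPM in other cells with TGFB1, and at 1011 CPM in cluster 7 and 582 CPM in other cells without it. VCAN (versican), a large proteoglycan of loose matrix, was 1.75-fold higher with TGFB1 and 3.88-fold without it. Of the genes for collagen modification, 4 of 20 were higher with TGFB1 and 10 of 20 without it, and 0 were lower in either library. PLOD2, a lysyl hydroxylase, was 1.57-fold higher with TGFB1 and 4.22-fold without it. THBS2, a matricellular thrombospondin, was 2.95-fold higher with TGFB1 and 4.17-fold without it, and TIMP3, a matrix-bound inhibitor of metalloproteases, 2.73-fold and 8.42-fold. MMP1, the interstitial collagenase, was 2.09-fold lower with TGFB1 and 8.75-fold lower without it.

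Most genes on the SMAD-responsive list were higher in cluster 7 than in the other cells of the untreated library. The list was written with earlier results of these data known, so its counts are a description only. They set cluster 7 against all other cells together and not against cluster 9. In the untreated library, 17 of 21 were at least 1.5-fold higher in cluster 7 than in other untreated cells and 0 were lower (median log2 ratio 0.99), where 9.03% of all genes were higher. In the TGFB1 library, 3 of 24 were higher and 5 lower (median -0.04), where 8.77% of all genes were higher and 4.57% lower, so the share of higher genes was near that of all genes. CDKN2B, an inhibitor of cyclin-dependent kinases that TGFB induces, stood at 335 CPM in cluster 7 and 305 CPM in other cells with TGFB1, and at 194 CPM in cluster 7 and 33.5 CPM in other cells without it. LDLRAD4, a membrane protein that dampens SMAD signalling, stood at 64.3 CPM in cluster 7 and 53.9 CPM in other cells with TGFB1, and at 13.9 CPM in cluster 7 and 2.42 CPM in other cells without it. PMEPA1, another such inhibitor, stood at 119 CPM in cluster 7 and 143 CPM in other cells with TGFB1, and at 39.9 CPM in cluster 7 and 16.03 CPM in other cells without it. In these 3, untreated cluster 7 lay between the other untreated cells and the TGFB1 cells. ACTA2, the smooth muscle actin that marks myofibroblasts, also had this order, at 1107 CPM in cluster 7 and 1275 CPM in other cells with TGFB1, and at 563 CPM in cluster 7 and 186 CPM in other cells without it. Of the smooth muscle and stress fibre list, 1 of 27 was higher and 1 lower with TGFB1 (MYH10 and TAGLN2), and 9 of 27 were higher and 1 lower without it, so most of the list did not pass 1.5-fold in either library.

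By the difference between the log2 ratios of cluster 7 over other cells in the 2 libraries, the genes whose ratio was higher without treatment by the most were ANKRD37, PDLIM3, PI16, CDKN2B, ACTC1 and SYN3. PDLIM3, an alpha-actinin binding protein of muscle, stood at 26.0 CPM in cluster 7 and 9.43 CPM in other cells with TGFB1, and at 20.5 CPM in cluster 7 and 1.25 CPM in other cells without it. PI16, a marker of adventitial progenitors, stood at 58.2 CPM in cluster 7 and 75.5 CPM in other cells with TGFB1, and at 38.6 CPM in cluster 7 and 8.88 CPM in other cells without it. With every other cluster weighted equally, the log2 ratio of PI16 without treatment turned to -0.85. The genes whose ratio was higher with TGFB1 by the most were LINC01036, PTX3, SLC39A8, USP53, AKAP12 and ITGB8. LINC01036 and AKAP12 were lower in cluster 7 than in other cells of both libraries, with log2 ratios of -1.19 and -0.65 with TGFB1 and of -3.40 and -2.22 without it, so they lay further from the other cells without treatment. PTX3, a secreted pentraxin of innate immunity, stood at 43.0 CPM in cluster 7 and 13.8 CPM in other cells with TGFB1, and at 176 CPM in cluster 7 and 205 CPM in other cells without it. SLC39A8, a zinc transporter, stood at 22.4 CPM in cluster 7 and 6.76 CPM in other cells with TGFB1, and at 31.6 CPM in cluster 7 and 51.4 CPM in other cells without it. LINC01036 stood at 9.49 CPM in cluster 7 and 21.6 CPM in other cells with TGFB1, and at 3.65 CPM in cluster 7 and 38.6 CPM in other cells without it, and it was 4.59-fold lower in cluster 7 of the TGFB1 library once the 25 distant cells were left out.

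Inflammatory and interferon lists also had the higher median ratio with TGFB1, at log2 0.63 and 0.14, against -0.27 and -0.83 without it. Of the inflammatory list, 11 of 17 were higher in cluster 7 and 1 lower with TGFB1, and 4 of 20 higher and 7 lower without it. Of all genes, 8.77% were higher and 4.57% lower with TGFB1, and 9.03% higher and 10.9% lower without it. SAA1, an acute-phase protein, stood at 37.2 CPM in cluster 7 and 5.73 CPM in other cells with TGFB1, and at 13.001 CPM in cluster 7 and 3.86 CPM in other cells without it. CXCL1, a neutrophil chemokine, stood at 1.84 CPM in cluster 7 and 1.57 CPM in other cells with TGFB1, and at 1.31 CPM in cluster 7 and 10.2 CPM in other cells without it. Of the interferon response list, 0 of 10 were higher and 1 lower with TGFB1, and 0 of 13 higher and 8 lower without it. IFIT3, an interferon-induced antiviral protein, stood at 3.83 CPM in cluster 7 and 4.56 CPM in other cells with TGFB1, and at 10.5 CPM in cluster 7 and 46.6 CPM in other cells without it. The class I antigen presentation list had 0 higher in either library, 1 of 11 lower with TGFB1 and 7 of 12 lower without it. With TGFB1, the 1 lower gene on each of the interferon and class I lists was near the share of all genes.

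Keratin and junction genes did not move as a group. KRT18, KRT34, DSP and DSG2 were higher in cluster 7 in both libraries, whereas KRT19 and KRT86 were lower in both. DSP (desmoplakin), the plaque protein of desmosomes, stood at 51.3 CPM in cluster 7 and 11.4 CPM in other cells with TGFB1, and at 45.1 CPM in cluster 7 and 3.74 CPM in other cells without it. KRT19, a simple-epithelial keratin, stood at 125 CPM in cluster 7 and 193 CPM in other cells with TGFB1, and at 301 CPM in cluster 7 and 690 CPM in other cells without it. Of the list, KRT5, EPCAM, CLDN3, ESRP1 and GRHL2 had 0 UMIs in cluster 7 of either library.

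Several defining markers of other cell types were at 0 in cluster 7. The mesothelial list summed to 136 CPM in cluster 7 and 204 CPM in other cells with TGFB1, and to 319 CPM in cluster 7 and 699.8 CPM in other cells without it, most of it KRT19, while MSLN, UPK3B, WT1 and ITLN1 had 0 UMIs in cluster 7 of both libraries. The endothelial list summed to 27.4 CPM in cluster 7 and 19.0 CPM in other cells with TGFB1, and to 25.1 CPM in cluster 7 and 15.6 CPM in other cells without it, and 4 of its 11 genes (PECAM1, CDH5, KDR and CLDN5) had 0 UMIs. Of its measured genes, 1 of 2 was at least 1.5-fold higher in cluster 7 with TGFB1 and 1 of 1 without it. That gene was EGFL7 in both libraries, and 0 were lower. The immune list summed to 22.5 CPM in cluster 7 and 20.4 CPM in other cells with TGFB1, and to 22.8 CPM in cluster 7 and 28.7 CPM in other cells without it, with 4 of 11 at 0. The melanocyte and neural crest list summed to 29.7 CPM in cluster 7 and 18.03 CPM in other cells with TGFB1, and to 34.3 CPM in cluster 7 and 49.1 CPM in other cells without it, with 4 of 11 at 0. These 3 lists were thus low in every sum. The striated muscle list summed to 862 CPM in cluster 7 and 314 CPM in other cells with TGFB1, and to 662 CPM in cluster 7 and 282 CPM in other cells without it. Of its measured genes, 4 of 5 were higher in cluster 7 and 0 lower with TGFB1, and 5 of 7 higher and 2 lower without it, with ACTC1 and PDLIM3 among the higher in both. Of the whole list, 20 of 39 genes had 0 UMIs in cluster 7 of both libraries, among them MYOD1, MYOG and ACTA1. The mural list summed to 256 CPM in cluster 7 and 247 CPM in other cells with TGFB1, and to 292 CPM in cluster 7 and 324 CPM in other cells without it. The adipogenic list summed to 542 CPM in cluster 7 and 488 CPM in other cells with TGFB1, and to 665 CPM in cluster 7 and 771 CPM in other cells without it, with CEBPA, FABP4, ADIPOQ, LPL and CIDEC at 0 UMIs. The part of these lists in the results was not tested. Markers of mesenchymal stromal identity had 2 of 17 higher and 4 lower with TGFB1, and 1 of 17 higher and 9 lower without it, where 8.77% of all genes were higher and 4.57% lower with TGFB1, and 9.03% higher and 10.9% lower without it. Among them NT5E (CD73), a defining surface enzyme, stood at 109 CPM in cluster 7 and 155 CPM in other cells with TGFB1, and at 155 CPM in cluster 7 and 287 CPM in other cells without it.

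The second question was how cluster 7 differed between TGFB1 and no treatment. Inside the cluster, 152 genes (1.39% of 10902) were at least 2-fold higher with TGFB1 and 120 (1.1%) at least 2-fold lower. Outside it, 417 (3.81% of 10932) were higher and 692 (6.33%) lower. The labels do not say how the cells of both libraries were brought into one clustering, and its part in these counts was not tested. The sums inside cluster 7 are also smaller than those outside. Without the distant cells the counts inside were 110 and 131. At 20 CPM or more in either sum they were 57 and 35.

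IL11, the cytokine of the interleukin 6 family that TGFB induces, had the highest ratio in cluster 7 by the 20 CPM rule. It stood at 74.1 CPM in TGFB1 cells and 8.18 CPM in untreated cells of the cluster, a ratio of 9.06 (exact conditional binomial interval 6.86 to 12.2). In all other cells it stood at 146 CPM with TGFB1 and 2.90 CPM without it, a ratio of 50.1. After thinning, 33.2% of cluster 7 cells and 52.1% of other cells had an IL11 UMI with TGFB1, and before thinning 54.8% and 64.3%. Without treatment 2.72% of cluster 7 cells (interval 1.10% to 5.53%) and 2.12% of other cells had one, which is no detectable difference at this depth, and before thinning 15.3% and 5.21%. IL11 in cluster 7 was thus lower than outside with TGFB1 and, in CPM, higher than outside without it.

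Other genes on the SMAD-responsive list with high ratios had the same form. KANK4, an ankyrin-repeat regulator of the actin cytoskeleton, stood at 24.3 CPM with TGFB1 and 4.09 CPM without it in cluster 7, a ratio of 5.95 (3.97 to 9.24) against 51.5 outside. TSPAN13, a tetraspanin, stood at 24.8 CPM with TGFB1 and 4.67 CPM without it, a ratio of 5.31 (3.61 to 8.02) against 54.8 outside. LDLRAD4 had a ratio of 4.63 (3.70 to 5.85) against 22.3 outside, and TSPAN2 a ratio of 5.70 (4.58 to 7.16) against 17.3. All of these were higher with TGFB1 both inside and outside the cluster. PMEPA1 had a ratio of 2.98 (2.59 to 3.43) against 8.90 outside. XYLT1, which starts glycosaminoglycan chains on proteoglycans, had a ratio of 3.21 (2.88 to 3.57) against 8.04. Over the SMAD list, 15 of 24 were at least 1.5-fold higher inside cluster 7 and 0 lower (median log2 ratio 0.68), where 5.03% of all genes were higher. Outside it, 21 of 24 were higher and 0 lower (median 1.83), where 8.64% of all genes were. The list was written with earlier results of these data known, so these counts are a description only.

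A few genes had ratios inside cluster 7 that were close to or above those outside, and some of these rested on the distant cells. CADPS, a factor for dense-core vesicle release, stood at 31.4 CPM with TGFB1 and 4.82 CPM without it in cluster 7, a ratio of 6.51 (4.49 to 9.71) against 2.38 outside. Without the distant cells that ratio was 4.07. BAALC had a ratio of 3.63 (2.52 to 5.32) against 1.45 outside, and of 1.96 without the distant cells, which is under 2-fold. PLD5, a member of the phospholipase D family, had a ratio of 4.64 against 5.49 outside, and of 3.16 without those cells. CADPS, BAALC and PLD5 were all lower in cluster 7 than in the other cells of either library. KRT86, a hair keratin, had a ratio of 5.21 (3.50 to 7.99) against 5.24 outside, and reads may be shared with its near copies. The rest of the 15 highest included SPOCD1, TENM4 and CRISPLD2, with ratios of 2.92 to 3.08.

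The 15 genes lowest with TGFB1 in cluster 7 by the 20 CPM rule included secreted and surface proteins. PTX3 stood at 43.0 CPM with TGFB1 and 176 CPM without it, 4.09-fold lower (3.59 to 4.67), against 14.9-fold lower outside. HGF, the hepatocyte growth factor, stood at 9.04 CPM with TGFB1 and 25.9 CPM without it, 2.86-fold lower (2.12 to 3.91), against 11.3-fold outside. ITGB8, the integrin subunit that helps to free latent TGFB, stood at 33.4 CPM with TGFB1 and 110 CPM without it, 3.31-fold lower (2.84 to 3.86), against 10.9-fold outside. TGFBR3 (betaglycan), a co-receptor for TGFB ligands, was 3.10-fold lower (2.26 to 4.34), against 6.28-fold outside. These 4 were lower with TGFB1 on both sides, and by a smaller factor inside. ADAMTS5, an aggrecan-cleaving protease, was 3.25-fold lower (2.37 to 4.51), against 9.27-fold. IFIT1, an interferon-induced antiviral protein, was 3.33-fold lower (2.48 to 4.53), against 9.07-fold. CLDN11, a tight-junction claudin, was 3.27-fold lower (2.50 to 4.33), against 14.9-fold. Of the other 8, MEST, an imprinted gene, was 2.99-fold lower (2.26 to 3.998) against 2.48-fold, and KRTAP1-5, MGARP, DCLK1, ANKRD33B, TXNIP, LINC02511 and MID1 were 2.78-fold to 4.25-fold lower.

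**Figure D4:**
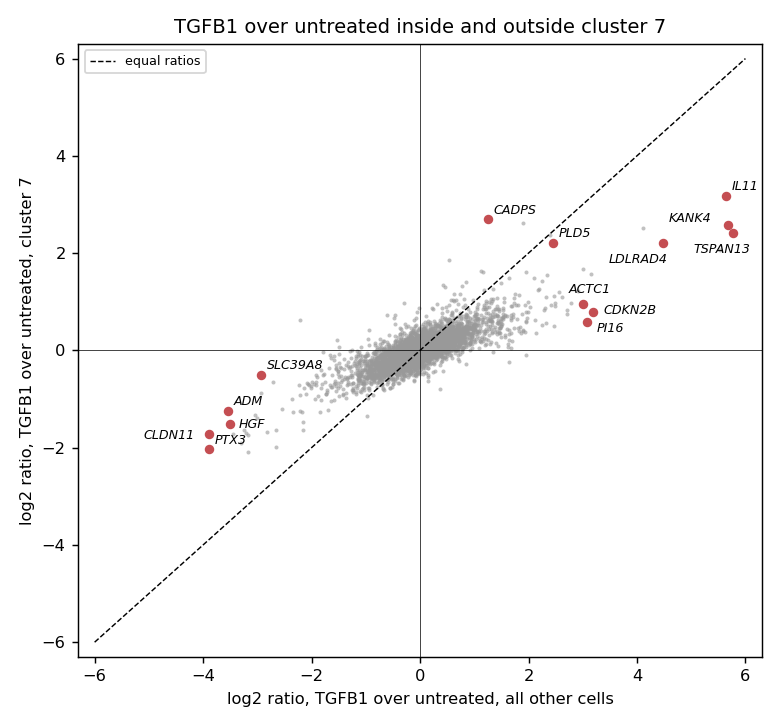
Each point is 1 of 6227 genes that reach 20 CPM in at least 1 library both in cluster 7 and outside it, with the log2 ratio of TGFB1 over untreated in all other cells on the x axis and in cluster 7 on the y axis, and named genes in red. Both axes rest on the same 2 libraries, and IL11 lies at 3.18 in cluster 7 against 5.65 outside, below the line of equal ratios, as PTX3 lies above it.

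Genes with the widest gap between the response inside and outside cluster 7 were read side by side, since both come from the same 2 libraries. By arithmetic this gap equals the difference, used above, between the libraries in the log2 ratio of cluster 7 over other cells. Genes named in both places are therefore not separate observations. Below the outside response, in log2 units inside minus outside, were TSPAN13 (-3.37), KANK4 (-3.11), PDLIM3 (-2.56), PI16 (-2.49), IL11 (-2.47), CDKN2B (-2.39), LDLRAD4 (-2.27) and ACTC1 (-2.06). All of these were higher with TGFB1 inside too, by ratios of 1.27 to 9.06. ACTC1 stood at 390 CPM with TGFB1 and 202 CPM without it in cluster 7, a ratio of 1.93 (1.81 to 2.06) against 8.03 outside. Above the outside response were, among others, SLC39A8 (2.43), ADM (2.30), CLDN11 (2.19), TFPI (2.06), ALDH1A3 (2.06), HGF (1.99) and PTX3 (1.86). ADM (adrenomedullin), a vasodilator peptide, stood at 18.1 CPM with TGFB1 and 42.7 CPM without it in cluster 7, 2.36-fold lower (1.90 to 2.95), against 11.6-fold outside. For these genes the response inside cluster 7 had the sign of the response outside and, by the rule that chose them, another size, here the smaller.

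Gene sets taken from the other cells show the same on the scale of levels. In the other 8 clusters together, 269 genes of 20 CPM or more were higher with TGFB1 by 2-fold or more (median log2 ratio 1.42) and 335 were lower by as much (median -1.42), values set by the choice of the genes. In cluster 7 the medians over these genes were 0.65 and -0.54, and 18.2% and 14.6% of the genes passed 2-fold the same way. The medians were 1.00 and -0.99 in cluster 9, and 1.14 and -0.94 in cluster 10. Cluster 1, an untreated cluster with 56 TGFB1 cells, gave 0.28 and -0.17, and cluster 2, with 46, gave 0.28 and -0.21. Cluster 8, a TGFB1 cluster with 30 untreated cells of a median of 1956 UMIs, gave 1.35 and -0.99. Both sets had the same untreated median level there, 3.81, so these 2 values rest on very few UMIs and are not read further. Clusters 1, 2 and 8 are themselves among the 8 clusters that chose the genes. In levels, the 269 genes had a median log2(CPM + 1) of 6.48 with TGFB1 and 5.78 without it in cluster 7, and of 6.54 and 5.06 in the other 8 clusters. The 335 genes had 4.34 and 4.84 in cluster 7, and 4.10 and 5.68 in the other 8 clusters. TGFB1-treated cluster 7 thus lay close to the other TGFB1 cells, and untreated cluster 7 lay between them and the other untreated cells. Untreated cells of clusters 9 and 10 also lay between, at 5.76 and 5.38 for the 269 genes and 5.47 and 5.17 for the 335 genes. A level in between was thus not particular to cluster 7.

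**Figure D5:**
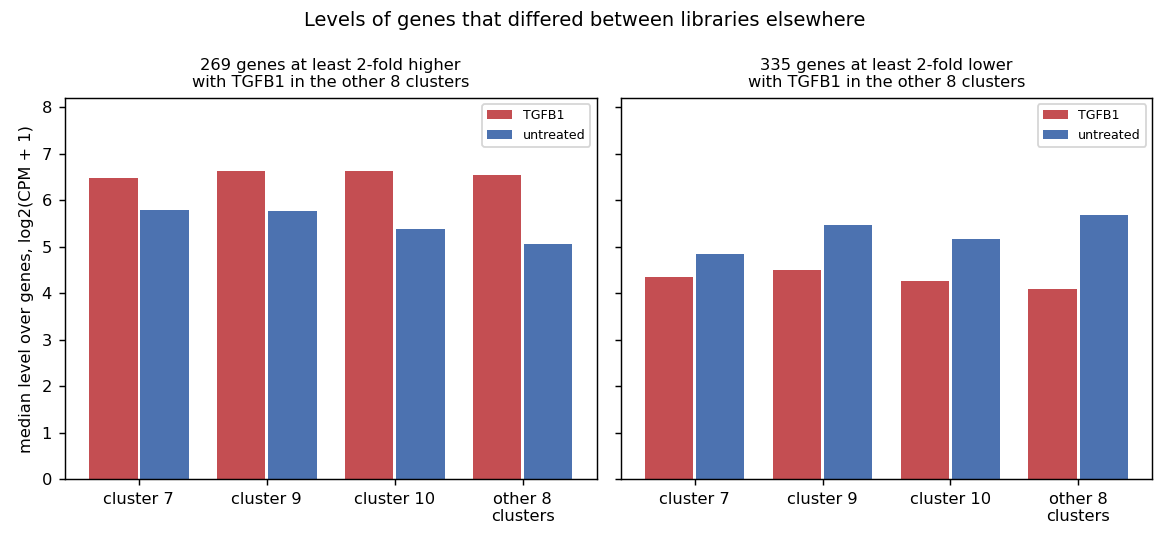
Bars are medians over genes of log2(CPM + 1), TGFB1 left and untreated right in each pair, for the 269 genes that were 2-fold or more higher, and the 335 that were as much lower, with TGFB1 in the other 8 clusters. In cluster 7 the pair stands at 6.48 and 5.78 for the first set and at 4.34 and 4.84 for the second, a narrower gap than the 6.54 and 5.06, and the 4.10 and 5.68, of the clusters that chose the genes.

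By list, fewer structural genes passed 1.5-fold inside cluster 7 than outside it. Of all genes, 5.03% were higher and 4.95% lower with TGFB1 inside, and 8.64% higher and 14.6% lower outside. Of the smooth muscle and stress fibre list, 4 of 27 were higher with TGFB1 (ACTA2, CNN1, TPM1 and SMTN) and 0 lower, against 18 higher and 0 lower outside. ACTA2 had a ratio of 1.97 (1.89 to 2.04) inside and 6.84 outside, and TPM1, a tropomyosin of stress fibres, of 1.92 (1.89 to 1.96) and 5.35. Of the collagen chains, 4 of 21 were higher (COL6A3, COL7A1, COL11A1 and COL27A1) and 1 lower (COL14A1), against 6 of 22 higher and 1 lower outside. Of the matricellular list, 2 of 17 were higher (CCN2 and COMP) and 3 lower (POSTN, CCN3 and EFEMP1), against 10 of 18 higher and 4 lower outside. Some of the cluster's leading genes were lower with TGFB1, POSTN 1.55-fold (1.51 to 1.59) and EFEMP1 1.56-fold (1.48 to 1.66), and outside the cluster they were 1.42-fold and 1.51-fold lower. COMP, a cartilage matrix protein, stood at 1876 CPM with TGFB1 and 1181 CPM without it inside, a ratio of 1.59 (1.54 to 1.63) against 2.81 outside. Of the genes for collagen modification, 0 of 20 passed 1.5-fold in either direction, against 5 higher and 0 lower outside.

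Signalling and inflammatory lists were mixed. Of the Wnt list, DKK2, FZD8 and TCF7 were higher with TGFB1 in cluster 7, and WNT2, WNT2B and ROR1 lower, of 21 measured. SFRP4 itself was 1.20-fold lower (1.15 to 1.24). Of the inflammatory list, CCL2, PTGS2, SAA1 and SAA2 were higher, and CXCL12, IL1A, IL1B and PTX3 lower, of 17, against 3 higher and 14 lower of 19 outside. PTGS2 stood at 130 CPM with TGFB1 and 78.7 CPM without it, a ratio of 1.65 (1.48 to 1.84). Reads of SAA1 and SAA2 may be split between near-identical copies. Of the interferon list, 6 of 13 were lower and 1 higher (IFI6), where 4.95% of all genes were lower. A further list held metallothioneins, which bind metal ions, and antioxidant genes. In cluster 7, 4 of its 16 measured genes were higher with TGFB1 (MT1E, MT1M, MT1X and MT2A) and 2 lower (NQO1 and TXNRD1). MT2A stood at 1116 CPM with TGFB1 and 449.5 CPM without it, a ratio of 2.48 (2.38 to 2.59) against 1.38 outside. MT1E had a ratio of 1.64 (1.47 to 1.83) against 1.08 outside. G2 and M phase genes were too low in cluster 7 to compare, with 6 measured and 0 past 1.5-fold, while outside it 24 of 24 were lower with TGFB1.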

How the data were processed

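Raw UMI counts of 38606 genes in 20656 cells were deposited as a matrix. For each cell the authors also deposited its UMI and gene counts, the percent of mitochondrial UMIs, a cluster number at resolution 0.4 and UMAP coordinates, a score with no unit. Cell Ranger 9.0.1, Seurat and GRCh38 stand in the submitters' processing notes without their roles, and no source used here gives the annotation. The lowest gene count per cell was 502 and the highest mitochondrial share 5.00%. No doublet caller was run, and leaving out the tenth of cells with the most UMIs was tried instead.

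UMIs were summed per library over cluster 7 and over all other cells and divided by the sum's total (CPM). Genes at 5 CPM or more in either sum were counted, as higher or lower from 2-fold, and list members from 1.5-fold. Ratios carry exact conditional binomial (Clopper-Pearson) 95% intervals. A sum of 0 was set to 3 UMIs. XIST and Y-linked genes were left out, and a few other genes that the rules select are not reported here. Named genes, at 20 CPM or more except list members, were the 15 highest and 10 lowest for cluster 7 in both libraries, the 6 that differed most between libraries in each direction, the 15 highest and 15 lowest ratios of TGFB1 over untreated, the 8 widest gaps each way between inside and outside, the 4 proposed markers, and up to 4 members of each of 42 lists with the largest ratios or all past 1.5-fold where 5 or fewer were. COL1A1 and TAGLN were named after values were seen. The members and lists were chosen with earlier results of these data known. Alternatives were other scalings (edgeR 4.0.16 for TMM factors only), other minima and folds, equal weights, thinning to 7500 UMIs, and cell filters. Steps were tested on simulated data. R 4.3.3 and Python 3.11.15 were used, with scipy 1.17.1 for the intervals and pandas 2.3.3 and numpy 2.4.6 for the sums.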

Additional observations from a re-analysis of the deposited data

Results flagged for a closer look

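FOS, an immediate early transcription factor, went opposite ways with TGFB1 inside and outside cluster 7. In cluster 7 it stood at 20.5 CPM with TGFB1 and 12.4 CPM without it, a log2 ratio of 0.72. In all other cells it stood at 22.5 CPM with TGFB1 and 34.3 CPM without it, 1.53-fold lower with TGFB1. The sums inside the cluster were 134 UMIs with TGFB1 and 85 without it. The difference between the 2 responses was not tested, because each condition is 1 library.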

How the results depend on the processing

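No paired analysis was possible because each condition is 1 library and no test was made. Of 106 recomputed counts, 79 stayed within 1.5 times the reported one, and 6 of 1425 list medians and 6 of 1929 gene ratios turned sign. For cluster 7 over other cells with TGFB1, counts of genes higher and lower were 1011 and 405 at a minimum of 1 CPM, 163 and 46 at 20 CPM, and 222 and 274 with every other cluster weighted equally, and the lower count was 253 after thinning, 233 without the tenth of cells with the most UMIs and 215 without the distant cells, an alternative chosen after seeing the data. Without treatment the counts were 1063 and 1006 at 1 CPM and 244 and 247 at 20 CPM, and the higher count was 712 with equal weight per cell and 716 after thinning. For TGFB1 over untreated in cluster 7 they were 543 and 686 at 1 CPM, 57 and 35 at 20 CPM, 290 and 433 after thinning, 548 and 540 past 1.5-fold, and 43 and 29 past 3-fold, and the lower count was 192 with equal weight per cell and 226 without the tenth of cells with the most UMIs. Another minimum or fold moves a count by construction, and the cause of the other shifts was not tested. The share of cluster 7 was 2.70% with TGFB1 among cells of 2000 or more genes, and without treatment 3.89% without cells with an MKI67 or TOP2A UMI and 2.91% without the tenth of cells with the most UMIs. Thinned marker shares were 61.2% and 32.3% for ACTC1, 52.2% and 47.5% for KRT18, 76.9% and 82.5% for SFRP4, with and without TGFB1, and 96.1% for untreated POSTN. Signs turned for ENG (-0.14 with TGFB1 and -1.20 without it), ADAMTS5 (-0.27 with TGFB1), KANK4 (-0.077 untreated), SCUBE3 (-0.33) and PI16 (-0.85 untreated) in log2 with every other cluster weighted equally. List medians turned for G2 and M phase with TGFB1 (0.15 without cells with an MKI67 or TOP2A UMI, 0.24 without clusters 5, 6 and 8). They also turned for the melanocyte list at 1 CPM (-0.25 with TGFB1, 0.72 without it), whose median at 5 CPM rests on 1 gene, MITF. For the treatment difference, the mesothelial list at 1 CPM (0.52) and the endothelial list at 20 CPM (-0.40) turned, both resting on 2 genes at 5 CPM. Other scalings moved all log2 ratios by -0.12 to 0.03 in the comparisons with cluster 7 and by 0.16 or 0.19 outside it, and none of these sign changes came from a scaling.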

Other observations

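Lists of lipid and growth factor genes had not been described for cluster 7 above. Of the cholesterol synthesis list, 4 of 16 were at least 1.5-fold higher in cluster 7 than in other cells with TGFB1 (DHCR7, INSIG1 and SC5D among them), 8 of 16 without it, and 0 lower in either, where 8.77% of all genes were higher with TGFB1 and 9.03% without it. INSIG1, which holds back the activation of sterol-responsive transcription factors, stood at 26.2 CPM in cluster 7 and 8.85 CPM in other cells with TGFB1, and at 16.9 CPM in cluster 7 and 7.79 CPM in other cells without it. IGFBP7, a secreted binding protein for insulin-like growth factors, stood at 1805 CPM in cluster 7 and 533 CPM in other cells with TGFB1, and at 2187 CPM in cluster 7 and 468 CPM in other cells without it. BAMBI, a decoy receptor for TGFB and bone morphogenetic protein ligands, stood at 110 CPM in cluster 7 and 26.1 CPM in other cells with TGFB1, and at 101 CPM in cluster 7 and 13.4 CPM in other cells without it. CDH11 and CDH13, cadherins of mesenchymal cells, were 1.77-fold and 1.99-fold higher with TGFB1, and 1.82-fold and 1.91-fold without it.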
